A study of Mus musculus with 12 samples.

Results

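The genes described here are the 42 genes of the autophagy machinery, a list that runs from the kinase complex that starts an autophagosome to the receptors that bring cargo to it. They were found by the mouse symbol of their Ensembl identifier among the 54838 genes of the count files. All 42 were found, and all 42 passed the filter on low counts and had at least 10 counts in every library. Of the whole series, 31109 genes passed that filter.

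Autophagy encloses part of the cytoplasm in a double membrane, the autophagosome, which fuses with lysosomes so that its content is broken down. The ULK1 complex starts the process, a class III PI3-kinase marks the membrane with the lipid PI3P, ATG9 and ATG2 supply lipid, and a pair of ubiquitin-like systems, built around ATG12 and the ATG8 proteins, extend the membrane and let it recognise cargo. In white matter, oligodendrocytes use autophagy to turn over organelles and proteins, and phagocytes use parts of the same machinery to handle the myelin they take up.

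RNA was sequenced from oligodendroglial-enriched spinal cord of P60 mice in 12 libraries, 3 in each of 4 groups. Controls were Olig1+/+;Tet1fl/fl and mutants were Olig1cre/+;Tet1fl/fl, so both genotypes carried the floxed Tet1 alleles and the mutants also carried Cre at the Olig1 locus, which removes the floxed exon in cells of the oligodendrocyte lineage. The lesion was made by injecting lysolecithin (LPC), a lipid that strips myelin, into the ventrolateral white matter of mice of either sex, and tissue was taken at 4 days post lesion (4dpl), with tissue of the uninjected side of the cord for comparison, so that lesioned and unlesioned libraries can share mice. A Percoll gradient enriched the cells and no sort followed. The labels do not say which libraries came from the same mouse, so the lesion was tested without pairs and the p-values below measure the spread between libraries.

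Total counts were between 34805086 and 67251544 per library. Genes with at least 1 count numbered 40023 to 44516 in the unlesioned libraries and 33964 to 37516 in the 4dpl libraries. Tet1 was at 14.9 to 18.3 CPM (counts scaled to library size by TMM) in the unlesioned control and 9.94 to 16.4 CPM in the unlesioned libraries labelled mutant (two-sided exact permutation p = 0.3). At 4dpl it was at 11.7 to 12.5 CPM in the control and 10.9 to 21.5 CPM in the libraries labelled mutant (two-sided exact permutation p = 0.5). The smallest p that 3 against 3 libraries can give is 0.1. The count over the whole gene did not separate the genotypes, and the mutant libraries below are those that the labels call so.

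Markers of several cell types were present, and some moved with the lesion. The summed level of 12 microglial markers was 5826 to 10890 CPM in the unlesioned control and 16697 to 26942 CPM in the control at 4dpl, with 11 of the 12 higher in every 4dpl library. The same sum in the mutant libraries was 4890 to 14058 CPM unlesioned and 15598 to 22079 CPM at 4dpl, with 7 of the 12 higher in every 4dpl library. The 12 oligodendrocyte markers summed to 17721 to 21953 CPM in the unlesioned control and 24973 to 35860 CPM in the control at 4dpl. Mutant libraries had sums of 15133 to 30317 CPM unlesioned and 27200 to 73084 CPM at 4dpl, the highest value belonging to replicate 3. Of these 12, 5 were higher and 1 lower in every 4dpl library of the control, and 1 was higher in the mutant libraries. The 8 astrocyte markers summed to 195.4 to 218.5 CPM and 325 to 605 CPM in the control, unlesioned and at 4dpl. In the mutant libraries they summed to 233 to 296 CPM and 332 to 615 CPM, and the sums did not overlap in either genotype. Of these 8, 4 were higher in every 4dpl library of the control, and in the mutant libraries 1 was higher and 1 lower. The sum of the 5 pericyte and fibroblast markers was higher without overlap in the control (14.4 to 20.5 CPM unlesioned and 30.9 to 56.8 CPM at 4dpl). In the mutant libraries it was lower without overlap (22.0 to 40.3 CPM and 17.6 to 21.7 CPM). Of these 5, 1 was higher in every 4dpl library of the control, and in the mutant libraries 1 was higher and 1 lower. The 6 neutrophil markers summed to 41898 to 90791 CPM in the unlesioned control and 25455 to 30859 CPM in the control at 4dpl, while the mutant groups overlapped (25989 to 105050.2 CPM and 18764 to 95118 CPM). The 5 erythroid markers overlapped in both genotypes, at 34187 to 99957 CPM and 12100 to 40863 CPM in the control and 18229 to 42729 CPM and 27362 to 44337 CPM in the mutant libraries. The 8 markers of infiltrating macrophages overlapped, at 11225 to 23660 CPM unlesioned and 17848 to 26224 CPM at 4dpl in the control. No marker of these lists was at 0 in any library. In such bulk samples, more cells of a type and more RNA per cell cannot be told apart, and the part of these shifts in the results below was not tested.

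**Figure D1:**
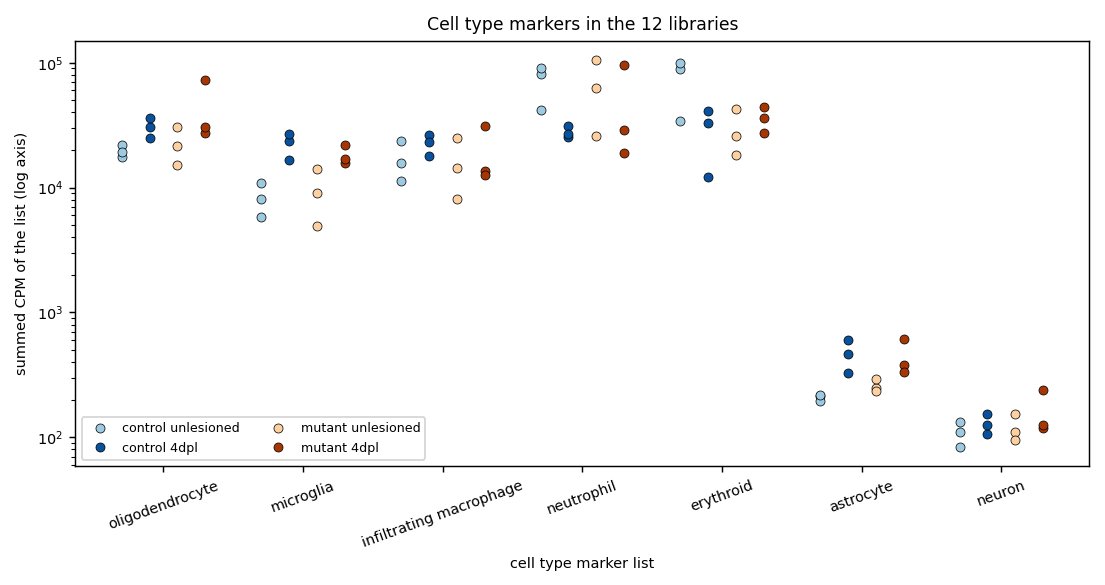
Summed CPM of 7 lists of cell type markers (log axis) in each of the 12 libraries, with 1 point a library and 1 colour a group. The microglial sums of the control are between 5826 and 10890 CPM unlesioned and between 16697 and 26942 CPM at 4dpl, without overlap.

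Levels of the members were compared with each other as CPM per kilobase of exon. In the unlesioned control the highest was Gabarap, an ATG8 protein, at 212 ± 21.5 CPM per kb (SD, n = 3), followed by Sqstm1, which encodes the cargo receptor p62, at 155 ± 68.7, and Bnip3l, a receptor for mitochondria, at 90.9 ± 35.6. Atg101, Gabarapl2, Map1lc3a, Map1lc3b and Vmp1 followed between 56.2 and 41.1 CPM per kb. The lowest were Pik3r4 at 2.24 ± 0.85, Atg2b at 1.65 ± 0.36 and Atg9b at 0.41 ± 0.07. The highest level was 519.7 times the lowest. Of the 41 pairs of neighbours in this order, only Atg2b and Atg9b had libraries that did not overlap, so the order is one of broad ranks.

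Control unlesioned replicate 1 stood apart for these genes. It had the highest level of its group for 38 of the 42 members, with a median of 0.38 on the log2 scale over the group mean, against -0.26 and -0.28 for replicates 2 and 3. In the mutant libraries at 4dpl, replicate 3 was the highest for 23 members. Mutant unlesioned replicate 1 and control 4dpl replicate 1 were the highest of their groups for 25 and 24. Counts of calls after lesion and values between genotypes are also given without control unlesioned replicate 1 and mutant 4dpl replicate 3 where they change.

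**Figure D2:**
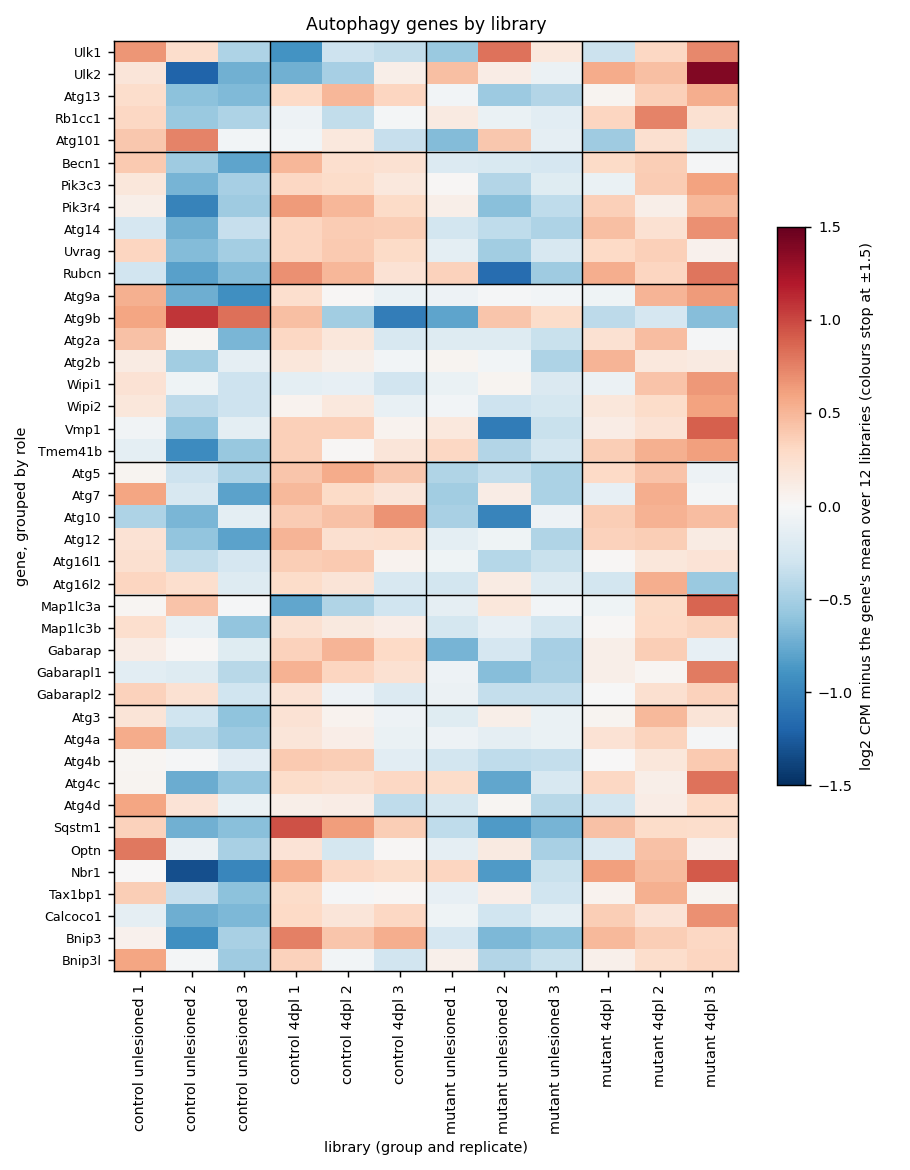
Level of each of the 42 autophagy genes (vertical axis, grouped by role) in each of the 12 libraries (horizontal axis), as log2 CPM minus the mean of the gene over all libraries. Red is above and blue below that mean, and control unlesioned replicate 1 is redder than the other unlesioned control libraries for 38 of 42 genes.

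The first comparison asks which autophagy genes differ between lesioned and unlesioned control tissue. A gene was called when edgeR gave p below 0.01 and an adjusted p below 0.05 over all 31109 genes. In the control, 5 of the 42 members were called higher at 4dpl, namely Bnip3, Atg14, Atg10, Calcoco1 and Atg5, and 0 were called lower. That is 11.9% of the members, where 5.12% of all genes were called higher and 5.01% lower. Among the 17528 genes with 10 counts in every library, as all the members had, 9.05% were called higher. The adjusted p of the 5 was between 0.0355 and 0.0481. A p below 0.05 before adjustment was reached by 15 members that were higher and 2 that were lower, against 13.9% and 20.1% of all genes.

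The median log2 difference of the members in the control was 0.32, against -0.36 over all genes tested and 0.21 over the 17528 well-counted genes. Of the members, 32 were above 0 and 10 below, where 39.1% of all genes and 61.9% of the well-counted genes were above. The 3 libraries at 4dpl were all higher than the 3 unlesioned libraries for 16 members (38.1%), where 16.5% of all genes and 28.5% of the well-counted genes did so, and all lower for 2 members, Map1lc3a and Atg9b, where 21.4% and 9.22% did so.

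The number of calls in the control depended on single libraries. The share of all genes called higher moved with it. Without control unlesioned replicate 1 the number was 19, where 12.2% of all genes were called higher. It was 0 without control unlesioned replicate 2 or 3 (0.003% and 0.249% of all genes), without control 4dpl replicate 1 or 2 (0.00883% and 0.00589%) and without mutant unlesioned replicate 3 (1.54%). Without control 4dpl replicate 3 it was 1 (2.76%), and without mutant 4dpl replicate 1 or 2 it was 2 (3.13% and 2.99%). With a block for the replicate number that the labels give, 10 members were called, all higher, where 7.51% of all genes were. With a block for the number in the study's own list of samples, which differs from that in the labels, 0 members were called, where 2.45% of all genes were higher. With a filter that kept the 17528 well-counted genes before scaling, 1 member was called higher (Bnip3) and 1 lower (Map1lc3a), where 3.87% and 3.51% of these genes were. Over 23 alternatives, Bnip3 was called in the control in 16, Atg14 in 14, Atg10 and Calcoco1 in 12 each and Atg5 in 8. Of members not called as tested, Rubcn was called in 11, Pik3r4 in 9 and Nbr1 in 8.

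The same comparison in the mutant libraries called 0 of the 42 members, where 0.0225% of all genes were called higher and 0.113% lower. The smallest adjusted p of a member was 0.0544, for Atg14. A p below 0.05 before adjustment was reached by 17 members, all higher, where 15.9% of all genes reached it in that direction. DESeq2 called 4 members, Atg14, Atg10, Sqstm1 and Bnip3, where it called 4.28% of all genes higher. The median log2 difference was 0.49, against -0.18 over all genes and 0.38 over the well-counted ones, and 40 of the 42 members were above 0, where 45.0% of all genes and 72.0% of the well-counted genes were. The libraries were separated upwards for 25 members (59.5%), against 18.8% of all genes and 32.7% of the well-counted ones, and downwards for 0, against 23.2% and 5.56%. Without control unlesioned replicate 1 the number of members called was 10, where 7.72% of all genes were called higher, and without mutant unlesioned replicate 1 it was 7, where 6.36% were. Both libraries enter the estimate of the spread that all groups share.

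Averaged over both genotypes, 6 libraries against 6, 16 members were called higher and 0 lower. That is 38.1% of them, where 14.2% of all genes and 25.1% of the well-counted genes were called higher, and 18.6% of all genes lower. The median log2 difference was 0.40, against -0.28 over all genes and 0.29 over the well-counted ones, and 37 members were above 0, where 41.6% of all genes and 67.7% of the well-counted genes were. Without control unlesioned replicate 1 the count was 30, where 17.7% of all genes were called higher. The other libraries, left out in turn, gave 11 to 17 members, where 10.2% to 14.9% of all genes were called higher. The calls by role were 1 of 5 in the ULK1 complex, 4 of 6 in the PI3-kinase complexes, 1 of 8 in membrane supply, 3 of 6 in ATG12 conjugation, 2 of 5 ATG8 proteins, 1 of 5 in ATG8 processing and 4 of 7 cargo receptors.

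**Figure D3:**
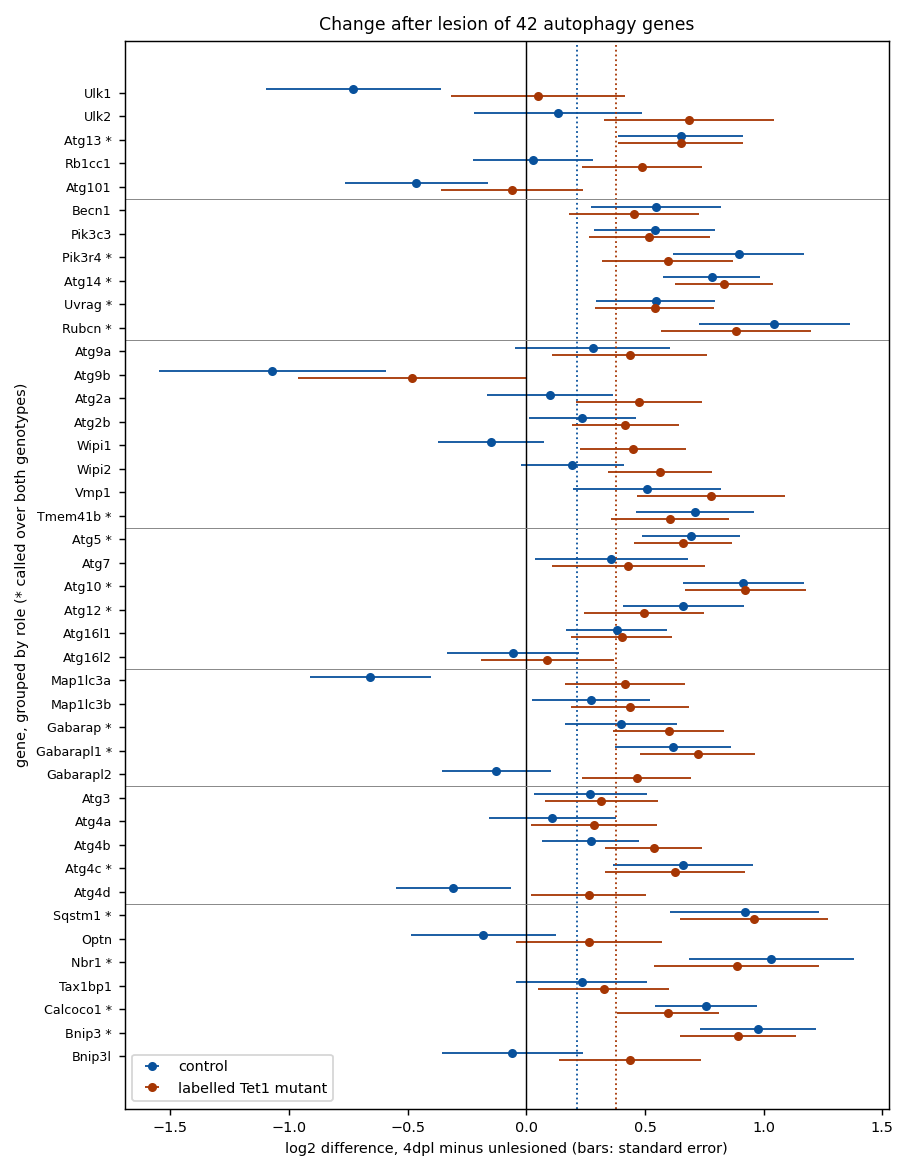
Log2 difference between 4dpl and unlesioned libraries (horizontal axis) for the 42 genes in the control (blue) and in the mutant libraries (red), with the standard error as bars, dotted lines at the median of the 17528 well-counted genes (0.21 and 0.38) and an asterisk at the 16 genes called over both genotypes. Most points lie right of 0, 32 in the control and 40 in the mutant libraries.

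Within the ULK1 complex, which receives nutrient signals and starts the autophagosome, 0 of 5 genes were called in the control and 1 over both genotypes, Atg13. Atg13 (chr2:91674618-91710576), the adaptor that binds the ULK kinases, was at 49.0, 26.6 and 25.7 CPM in the unlesioned control and 50.2, 57.5 and 51.2 at 4dpl. The control libraries were separated by a small margin, since unlesioned replicate 1 was close to the 4dpl values. Mutant levels were 39.6, 28.0 and 30.2 CPM unlesioned and 41.9, 52.1 and 59.4 CPM at 4dpl. Its log2 difference was 0.65 ± 0.26 (SE) in the control, 0.65 ± 0.26 in the mutant libraries and 0.65 ± 0.19 over both (edgeR adjusted p = 0.016). The kinase Ulk1 had a log2 difference of -0.73 in the control and 0.05 in the mutant libraries, the scaffold Rb1cc1 (FIP200) 0.03 and 0.49, and Atg101, which stabilises ATG13, -0.46 and -0.06. None of these passed the test in either genotype.

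The class III PI3-kinase complexes make PI3P, and all 6 of their genes were above 0 in both genotypes, from 0.54 to 1.04 in the control and from 0.45 to 0.88 in the mutant libraries. Atg14 (chr14:47540893-47570649), the subunit that directs the kinase to the site of autophagosome formation, was at 16.1, 11.6 and 15.1 CPM in the unlesioned control and 23.9, 25.0 and 24.7 at 4dpl. The mutant libraries had 15.9, 14.8 and 13.9 CPM unlesioned and 26.1, 22.5 and 30.8 CPM at 4dpl. Every 4dpl library lay above every unlesioned one, in both genotypes. Atg14 rose in the control, with a log2 difference of 0.78 ± 0.20 (edgeR adjusted p = 0.038), and the value in the mutant libraries was 0.83 ± 0.20 (adjusted p = 0.0544).

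Rubcn (chr16:32821703-32877766), which encodes Rubicon, an inhibitor of the kinase complex that contains UVRAG, was at 31.8, 22.0 and 24.7 CPM in the unlesioned control and 62.4, 54.4 and 45.0 at 4dpl. Levels in the mutant libraries were 49.2, 17.5 and 26.8 CPM unlesioned and 56.3, 48.3 and 67.6 at 4dpl. The control groups did not overlap, while mutant unlesioned replicate 1 reached the 4dpl values. Its log2 difference of 1.04 ± 0.32 in the control was the largest upward difference of the 42 and just missed the threshold (adjusted p = 0.0506). Over both genotypes Rubcn was called (0.96 ± 0.22, adjusted p = 0.00723). Pik3r4 (chr9:105642978-105687657), the regulatory kinase VPS15, was at 30.5, 14.4 and 19.9 CPM in the unlesioned control and 44.7, 40.8 and 35.1 at 4dpl. Values of 30.5, 18.7 and 22.1 CPM unlesioned and 36.9, 30.5 and 40.2 at 4dpl were found in the mutant libraries. The control groups were apart, and the other pair was apart by a margin smaller than the digits printed. Pik3r4 was called over both genotypes (0.74 ± 0.20, adjusted p = 0.0113), as was Uvrag (0.54 ± 0.18, adjusted p = 0.0268). The catalytic subunit Pik3c3 had a log2 difference over both genotypes of 0.53 ± 0.18 and Becn1 of 0.50 ± 0.19, and neither was called (adjusted p = 0.0322 and 0.0517). The p of Pik3c3 missed the limit of 0.01 before adjustment. Of the exon bases of Becn1, 43.9% are shared with the antisense gene Cntd1, so its count may hold reads of both.

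Of the 8 genes for membrane supply and lipid transfer, 0 were called in the control and 1 over both genotypes, Tmem41b. Tmem41b (chr7:109972187-109986929), a lipid scramblase of the endoplasmic reticulum, was at 39.1, 22.6 and 29.3 CPM in the unlesioned control and 55.5, 44.1 and 49.4 at 4dpl. Unlesioned mutant libraries had 54.0, 31.9 and 36.0 CPM and those at 4dpl 56.1, 62.9 and 66.4 CPM. Neither pair of groups overlapped, and the log2 difference over both was 0.66 ± 0.18 (adjusted p = 0.0123). Wipi1 (chr11:109573331-109611967), which binds PI3P, was at 57.3, 47.2 and 39.8 CPM in the unlesioned control and 44.5, 45.3 and 40.5 at 4dpl, so that these groups overlapped and the sign of the difference changed with the setting. Among mutants the level was 46.0, 50.8 and 42.5 CPM unlesioned and 46.4, 66.2 and 77.6 CPM at 4dpl. The remaining genes of this role had log2 differences in the control of 0.51 (Vmp1, a scramblase), 0.28 (Atg9a, the scramblase of the seed vesicles), 0.24 (Atg2b) and 0.10 (Atg2a), both lipid transfer proteins, and 0.19 (Wipi2, which recruits ATG16L1). In the mutant libraries these 5 were between 0.42 and 0.78. Atg9b, at 0.44 to 1.89 CPM the least abundant member, had log2 differences of -1.07 ± 0.48 in the control and -0.48 ± 0.48 in the mutant libraries. Atg9a shares 32.6% of its exon bases with other genes, among them Ankzf1 on the same strand.

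The ATG12 system conjugates ATG12 to ATG5, and with ATG16L1 this conjugate sets where ATG8 proteins are attached to lipid. Of its 6 genes 2 were called higher in the control, Atg5 and Atg10, and over both genotypes Atg12 was called too. Atg5 (chr10:44268358-44364291), the acceptor of ATG12, was at 58.9, 46.2 and 41.7 CPM in the unlesioned control and 76.8, 84.4 and 76.3 at 4dpl. Levels of 41.9, 44.7 and 41.3 CPM unlesioned and 70.9, 77.1 and 54.3 CPM at 4dpl were found in the mutant libraries. The 4dpl libraries were higher without overlap in both genotypes. The log2 difference was 0.69 ± 0.21 in the control (adjusted p = 0.0481) and 0.66 ± 0.21 in the mutant libraries (adjusted p = 0.0689).

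Atg10 (chr13:90935356-91223968), the E2-like enzyme that joins ATG12 to ATG5, was among the scarcer members, at 9.50, 8.20 and 11.9 CPM in the unlesioned control and 17.1, 17.8 and 20.9 at 4dpl. The mutant libraries had 9.40, 6.60 and 12.5 CPM unlesioned and 16.9, 18.9 and 18.1 at 4dpl. All 6 libraries at 4dpl were above all 6 unlesioned ones. Atg10 rose in the control, with a log2 difference of 0.91 ± 0.26 (adjusted p = 0.0429), and differed by 0.92 ± 0.26 in the mutant libraries (adjusted p = 0.0586). Atg12 (chr18:46730144-46741580) was at 58.3, 33.2 and 28.8 CPM in the unlesioned control and 71.3, 59.1 and 59.8 at 4dpl. It was at 45.1, 48.0 and 36.5 CPM unlesioned and 63.6, 64.7 and 54.4 at 4dpl in the mutant libraries. Unlesioned replicate 1 came within about 1 CPM of the lowest control library at 4dpl, and over both genotypes Atg12 was called (0.58 ± 0.18, adjusted p = 0.0224). Atg7, the shared E1-like enzyme, had a log2 difference over both genotypes of 0.39 ± 0.23, Atg16l1 of 0.39 ± 0.15 and its relative Atg16l2 of 0.02 ± 0.20, and none of these was called.

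The 5 ATG8 proteins are attached to the autophagosome membrane and bind the receptors. None was called in the control, and over both genotypes 2 GABARAP genes were. Gabarap (chr11:69991143-69994951) was at 427, 397 and 348 CPM in the unlesioned control and 501, 561 and 484 at 4dpl. Mutant levels were 243, 330.0 and 278 CPM unlesioned and 419, 508 and 362 CPM at 4dpl. Both pairs of groups were apart, and the log2 difference over both genotypes was 0.50 ± 0.17 (adjusted p = 0.0291). Gabarapl1 (chr6:129533160-129542346) was at 59.8, 58.6 and 50.4 CPM in the unlesioned control and 96.4, 84.1 and 78.5 at 4dpl. Its levels in the mutant libraries were 63.5, 43.0 and 48.0 CPM unlesioned and 71.2, 68.2 and 115 at 4dpl. Again no library at 4dpl fell into the unlesioned range, and the log2 difference over both was 0.67 ± 0.17 (adjusted p = 0.0103). Gabarapl1 shares 28.3% of its exon bases with a gene on the opposite strand.

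The other 3 ATG8 genes were not called by edgeR in any comparison as tested here. Under the alternatives, Map1lc3a was called lower in the control in 3 of 23, and Map1lc3b higher over both genotypes in 2 of 22. Gabarapl2 (chr8:111940703-111953612) was at 146, 135 and 93.9 CPM in the unlesioned control, 134, 109 and 100 in the control at 4dpl, 108, 90.2 and 89.6 in the unlesioned mutant libraries and 115, 136 and 147 in those at 4dpl. Map1lc3b (chr8:121590361-121598760), the LC3 protein most used as a marker of autophagosomes, was at 445, 347 and 248 CPM in the unlesioned control and 438, 416 and 401 at 4dpl. The mutant libraries had 313, 344 and 310.1 CPM unlesioned and 379, 459 and 472 CPM at 4dpl. The control groups of both genes overlapped, with log2 differences of -0.13 ± 0.23 and 0.27 ± 0.25, the sign of the first changing with the setting. Map1lc3a (chr2:155276297-155278073) was at 56.0, 74.2 and 54.2 CPM in the unlesioned control and 32.1, 40.3 and 44.6 at 4dpl. It was at 50.1, 61.8 and 53.6 CPM unlesioned and 52.5, 67.2 and 101 at 4dpl in the mutant libraries. Its levels were lower in all 3 control libraries at 4dpl, with a log2 difference of -0.66 ± 0.25 (adjusted p = 0.0936), while the other 2 groups overlapped (0.41 ± 0.25). Only uniquely aligned reads were counted, so reads shared between near-identical copies of ATG8 genes are missing from these levels.

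ATG8 proteins are cut by the ATG4 proteases and joined to lipid by ATG3. Of these 5 genes 0 were called in the control and 1 over both genotypes, Atg4c. Atg4c (chr4:99193934-99259787) was at 19.6, 11.3 and 12.7 CPM in the unlesioned control and 22.9, 22.4 and 23.5 at 4dpl. Unlesioned mutant libraries had 23.0, 11.0 and 16.0 CPM and those at 4dpl 23.6, 20.2 and 33.4 CPM. The control groups were apart and the other 2 overlapped, with a log2 difference over both of 0.64 ± 0.21 (adjusted p = 0.0265). Atg4d (chr9:21265293-21277772) was at 58.2, 44.5 and 36.1 CPM in the unlesioned control and 40.9, 41.6 and 29.6 at 4dpl, and at 32.2, 39.6 and 29.0 and 32.0, 41.7 and 47.4 CPM in the mutant libraries. Its groups overlapped, and the sign of its difference over both genotypes changed with the setting. The log2 differences of Atg3, Atg4a and Atg4b were 0.27, 0.11 and 0.27 in the control, and 0.32, 0.29 and 0.54 in the mutant libraries.

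Cargo receptors bind both the cargo and the ATG8 proteins. Of 7 genes 2 were called higher in the control, Bnip3 and Calcoco1, and 4 over both genotypes. Bnip3 (chr7:138890836-138909519), a receptor on the outer mitochondrial membrane, was at 42.6, 21.5 and 29.1 CPM in the unlesioned control and 69.1, 54.7 and 59.6 at 4dpl. Among mutants the level was 34.2, 25.6 and 26.9 CPM unlesioned and 57.1, 52.9 and 50.8 CPM at 4dpl. All 6 libraries at 4dpl were above all 6 unlesioned ones. Bnip3 rose in the control, with a log2 difference of 0.98 ± 0.24 (adjusted p = 0.0355), and the difference in the mutant libraries was 0.89 ± 0.24 (adjusted p = 0.0579). It shares 22.3% of its exon bases with Gm45507. Its relative Bnip3l, whose level per kb was higher, had log2 differences of -0.06 ± 0.30 and 0.44 ± 0.30.

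Calcoco1 (chr15:102706777-102722178), a receptor for the endoplasmic reticulum, was at 29.2, 19.4 and 20.1 CPM in the unlesioned control and 39.7, 36.5 and 39.8 at 4dpl. Levels in the mutant libraries were 30.9, 26.2 and 29.0 CPM unlesioned and 41.5, 37.2 and 51.6 at 4dpl. Both genotypes were without overlap. The log2 difference was 0.76 ± 0.22 in the control (adjusted p = 0.0446) and 0.60 ± 0.21 in the mutant libraries (adjusted p = 0.0878).

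Sqstm1 (chr11:50199366-50210827), the receptor for ubiquitinated proteins, was at 785, 374 and 399 CPM in the unlesioned control and 1197, 952 and 797 at 4dpl. It was at 473, 343 and 379 CPM in the unlesioned mutant libraries and 835, 746 and 742 at 4dpl. Control unlesioned replicate 1 was about as high as the lowest control library at 4dpl. Sqstm1 had a log2 difference of 0.92 ± 0.31 in the control (adjusted p = 0.0677) and of 0.94 ± 0.22 over both genotypes, where it was called (adjusted p = 0.00757). Nbr1 (chr11:101552149-101581951), which acts with p62 on aggregates, was at 104, 41.2 and 52.1 CPM in the unlesioned control and 151, 128 and 124 at 4dpl. Levels of 129, 57.3 and 81.8 CPM unlesioned and 157, 144 and 195 CPM at 4dpl were found in the mutant libraries. Replicate 1 was the highest unlesioned library in both genotypes, and it stayed below the 4dpl libraries of its genotype. Over both genotypes Nbr1 was called (0.96 ± 0.25, adjusted p = 0.0102). Optn and Tax1bp1, receptors that also serve mitophagy and aggregates, had log2 differences over both genotypes of 0.04 ± 0.22 and 0.28 ± 0.20 and were not called.

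**Figure D4:**
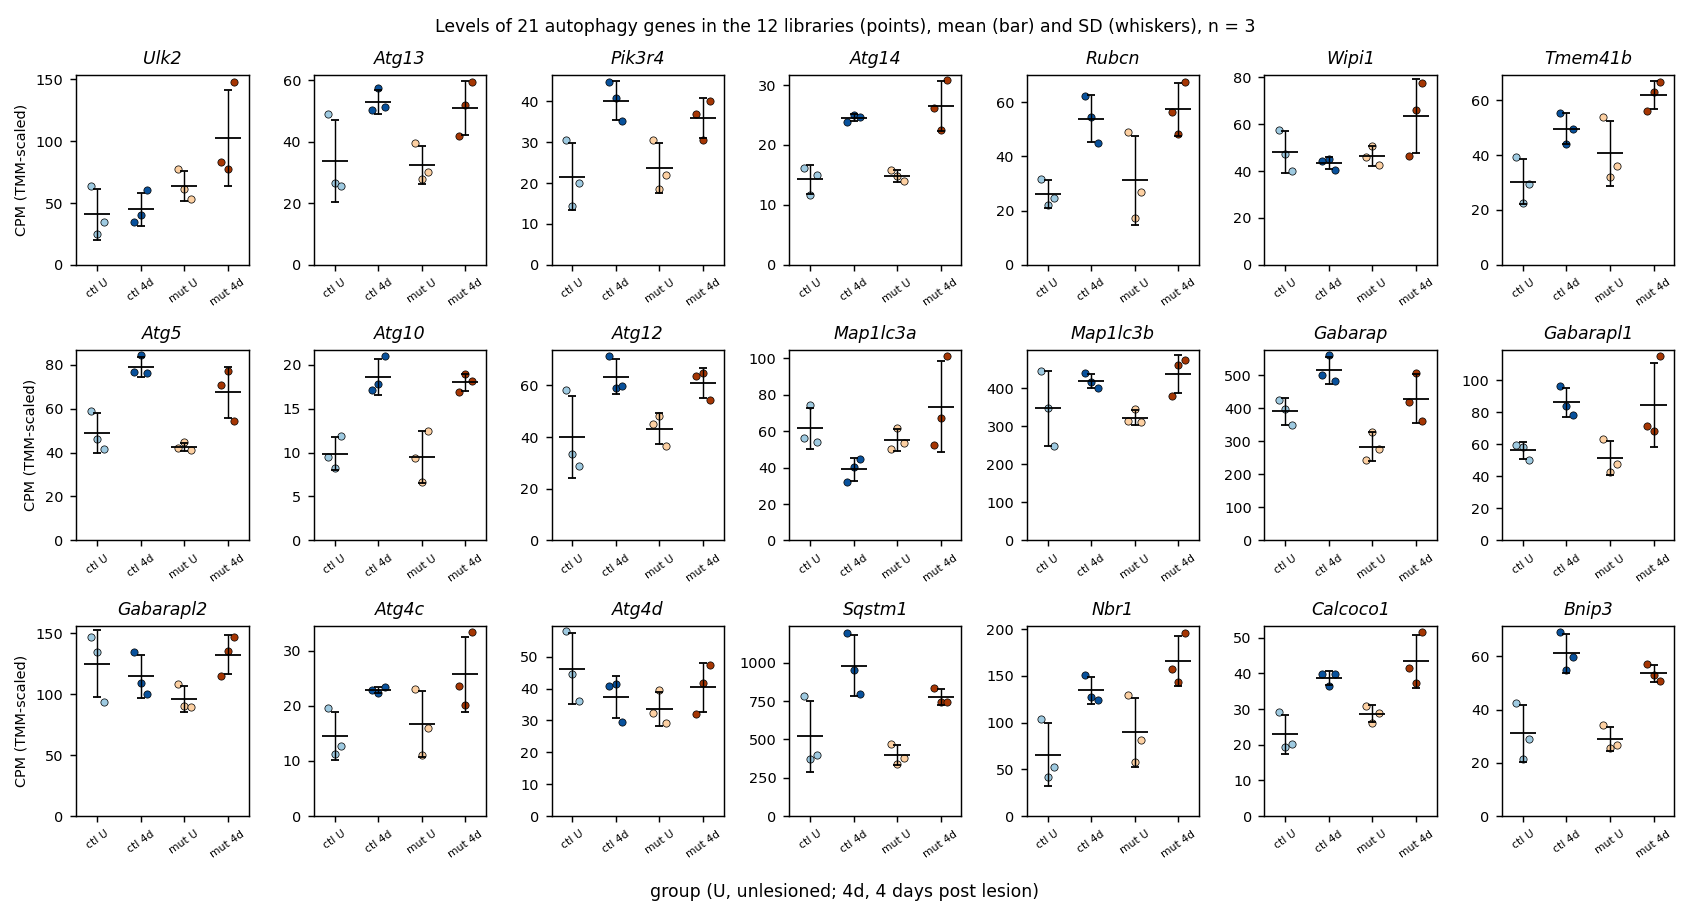
CPM of 21 autophagy genes in the 12 libraries, 1 panel a gene, with points for libraries, a bar for the mean and whiskers for the SD (n = 3) of each group (control and mutant, unlesioned and at 4dpl). For Atg10 and Bnip3 all 6 libraries at 4dpl lie above all 6 unlesioned ones, while the groups of Atg4d and Wipi1 overlap in the control.

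The 5 genes called in the control are shown with the 250 bases before their RefSeq transcription start, as the members that passed the test there. CACGTG, the core of the site read by the transcription factors TFEB, TFE3 and MITF, was searched in them. Capitals mark CACGTG, which reads the same on both strands. The sequences are from RefSeq on GRCm38.p6 and run 5′ to 3′ along the gene.
Atg5, chr10:44268089-44268338, plus strand: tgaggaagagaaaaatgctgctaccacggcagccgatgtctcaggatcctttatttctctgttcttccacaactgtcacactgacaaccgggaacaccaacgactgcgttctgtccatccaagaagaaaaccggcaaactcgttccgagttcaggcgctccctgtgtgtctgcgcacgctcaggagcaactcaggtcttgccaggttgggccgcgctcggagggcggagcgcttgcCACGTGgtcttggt
Bnip3, chr7:138909507-138909756, minus strand: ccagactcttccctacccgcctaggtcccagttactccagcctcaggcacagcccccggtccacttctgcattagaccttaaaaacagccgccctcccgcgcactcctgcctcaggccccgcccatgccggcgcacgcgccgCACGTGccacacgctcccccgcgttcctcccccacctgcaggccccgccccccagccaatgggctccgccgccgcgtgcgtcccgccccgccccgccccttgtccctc
Atg14, chr14:47568435-47568684, minus strand: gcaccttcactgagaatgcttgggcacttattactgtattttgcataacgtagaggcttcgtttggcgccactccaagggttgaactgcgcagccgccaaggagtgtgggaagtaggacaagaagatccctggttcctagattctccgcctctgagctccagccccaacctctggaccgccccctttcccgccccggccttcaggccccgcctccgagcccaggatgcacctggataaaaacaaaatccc
Atg10, chr13:91223988-91224237, minus strand: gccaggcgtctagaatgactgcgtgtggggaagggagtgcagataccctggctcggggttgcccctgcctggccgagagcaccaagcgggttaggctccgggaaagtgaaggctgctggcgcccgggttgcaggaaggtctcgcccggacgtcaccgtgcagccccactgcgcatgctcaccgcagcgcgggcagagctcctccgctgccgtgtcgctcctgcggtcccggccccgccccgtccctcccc
Calcoco1, chr15:102722179-102722428, minus strand: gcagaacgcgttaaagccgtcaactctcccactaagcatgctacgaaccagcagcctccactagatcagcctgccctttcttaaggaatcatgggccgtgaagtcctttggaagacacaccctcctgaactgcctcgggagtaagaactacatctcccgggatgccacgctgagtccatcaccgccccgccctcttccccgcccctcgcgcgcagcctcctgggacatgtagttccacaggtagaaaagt
The RefSeq start of Atg14 lies 2215 bases inside the gene as the annotation of the counts gives it, and those of the other 4 within 19 bases of the start given there. The bases after the RefSeq start were found in a transcript for all of these genes except Atg10. CACGTG was found in 2 of the 5, starting 14 bases before the start of Atg5 and 108 bases before that of Bnip3. Over all members, 35 had a promoter in the RefSeq table, with 42 windows, of which 5 windows (11.9%) held CACGTG, those of Atg3, Atg5, Atg7, Bnip3 and 1 of Rubcn. Of all 32851 windows of this length 6.02% held it. These matches describe the letters of the windows only.

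The comparison between genotypes in unlesioned tissue called 0 of the 42 members and 0.0% of all genes with edgeR, and 0 members had a p below 0.05 before adjustment, where 1.72% of all genes were higher and 3.5% lower at that level. DESeq2 called 0 members too, with 0.0546% of all genes higher and 0.09% lower. The smallest p values were those of Gabarap and Atg4d. The mean of Gabarap was 391 ± 39.6 CPM (SD, n = 3) in control and 284 ± 43.8 CPM in the mutant libraries, a log2 difference of -0.46 ± 0.23 (adjusted p = 0.982), and its libraries did not overlap. Atg4d was at 46.3 ± 11.2 and 33.6 ± 5.40 CPM, with a log2 difference of -0.46 ± 0.24 and overlapping libraries. Without control unlesioned replicate 1 these differences were -0.39 ± 0.23 and -0.26 ± 0.24, 0 members were called, and 8 members, all higher in the mutant libraries, reached p below 0.05 before adjustment, where 10% of all genes did so in either direction. Ulk2 was among the 8, at 1.12 ± 0.33 (adjusted p = 0.221). With all libraries the 5 ATG8 genes were below 0, from -0.46 to -0.10, where 51.8% of all genes were above 0. Without control unlesioned replicate 1 Map1lc3b was above 0, at 0.12. The other ATG8 genes stayed below 0 in that fit, from -0.39 to -0.08. Libraries were separated downwards for 3 members (Atg9b, Gabarap and Atg4b), where 6.28% of all genes were, and upwards for 0, where 4.09% were.

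At 4dpl the genotypes again had 0 of 42 members called with edgeR, which called 0.0% of all genes, and 0 with DESeq2, which called 0.649% higher and 0.0804% lower. A p below 0.05 before adjustment was reached by 5 members, all higher in the mutant libraries, where 5.15% of all genes were. They were Map1lc3a (0.92 ± 0.25, adjusted p = 0.337), Ulk2 (1.19 ± 0.36, adjusted p = 0.379), Wipi1 (0.55 ± 0.22), Rb1cc1 (0.60 ± 0.25) and Ulk1 (0.80 ± 0.37). Of these, 3 belong to the ULK1 complex. Ulk2 (chr11:61775649-61855073), an initiating kinase, was at 34.4, 40.2 and 60.1 CPM in the control at 4dpl and 83.1, 77.4 and 148 CPM in the mutant libraries at 4dpl. Unlesioned, Ulk2 was at 64.0, 24.5 and 34.3 CPM in the control and 77.2, 61.2 and 53.2 CPM in the mutant libraries. The 4dpl groups did not overlap, and replicate 3 of the mutant libraries, which also had the highest oligodendrocyte markers, was far above the rest. That replicate was the highest of its group for Map1lc3a, Wipi1 and Ulk1 as well, and the part of its markers in these values was not tested. Without that replicate the differences at 4dpl were 0.84 ± 0.36 for Ulk2, 0.61 ± 0.24 for Map1lc3a, 0.37 ± 0.24 for Wipi1, 0.70 ± 0.29 for Rb1cc1 and 0.53 ± 0.39 for Ulk1, and 3 members reached p below 0.05 before adjustment, where 5.31% of all genes did so in either direction. Libraries were separated upwards for 6 members, where 7.34% of all genes were, and downwards for 0, where 5.44% were.

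The interaction asks whether the change after lesion differs between genotypes. With edgeR 0 members were called, out of 0.0% of all genes, and the adjusted p of every member was 1. DESeq2 called 0 members and 0.0% of all genes. A single member reached p below 0.05 before adjustment, where 2.66% of all genes did so in that direction, namely Map1lc3a, with a difference between the log2 changes of 1.07 ± 0.36, and of 0.77 ± 0.33 without mutant 4dpl replicate 3. The next smallest p was that of Wipi1 (0.60 ± 0.32). Side by side, 32 members were above 0 in both genotypes, 2 below 0 in both (Atg9b and Atg101) and 8 below 0 in the control and above 0 in the mutant libraries. Of these 8, only Ulk1 and Map1lc3a stayed below 0 in the control under every alternative. Wipi1 and Gabarapl2 were above 0 in the control without control unlesioned replicate 1, at 0.025 and 0.031. The log2 difference after lesion was the larger in the mutant libraries for 29 members and in the control for 13. It was the larger in the mutant libraries for 54.8% of all genes. Without control unlesioned replicate 1 the balance of the members turned, with more below 0 than above 0 in the interaction. The libraries at 4dpl were separated upwards from the unlesioned ones in both genotypes for 13 members (31.0%), where 11.0% of all genes and 19.4% of the well-counted genes were.

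Of 55 other genes of the autophagy pathway, all tested, 15 (27.3%) were called higher in the control after lesion and 0 lower, 0 in the mutant libraries, and 36 (65.5%) higher over both genotypes. Of all genes 5.12% were called higher in the control and 14.2% over both, and of the well-counted genes 9.05% and 25.1%. Their median log2 difference in the control was 0.74, against 0.32 for the 42 members. The list for fusion of autophagosomes with lysosomes had the most calls, 7 of 13 in the control and 10 of 13 over both genotypes, with all 13 above 0 in both genotypes and a median of 0.99 in the control and 0.80 in the mutant libraries. Among them were Tecpr1 (1.09 ± 0.23, adjusted p = 0.0264), a tether between the 2 organelles, the SNARE protein Ykt6 (0.99 ± 0.23), the adaptor Plekhm1 (1.25 ± 0.30) and the HOPS tethering subunits Vps33a (1.23 ± 0.28) and Vps41 (1.11 ± 0.27). Tecpr1 was at 50.8, 42.7 and 49.9 CPM in the unlesioned control and 109, 97.2 and 97.7 at 4dpl. In the mutant libraries it was at 52.9, 31.0 and 50.9 and 98.6, 78.5 and 79.0 CPM. All 6 libraries at 4dpl lay above all 6 unlesioned ones.

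Nutrient sensing upstream of ULK1 had 5 of 14 genes called in the control and 9 over both genotypes. Fnip2, a folliculin partner that acts on mTORC1 at the lysosome, rose most of these (1.62 ± 0.36 in the control, adjusted p = 0.0282), and its value in the mutant libraries was 1.45 ± 0.36. Mitophagy and ER-phagy factors had 2 of 10 called in the control and 6 over both, with the mitochondrial receptor Fundc1 at 1.02 ± 0.26 in the control. Other regulators and early factors had 1 of 12 called in the control and 8 over both, the first being Nrbf2, a subunit of the PI3-kinase complex with ATG14, at 0.77 ± 0.20. Of 6 transcriptional regulators 0 were called in the control and 3 over both. Tfeb had log2 differences of 0.11 ± 0.25 in the control and 0.56 ± 0.25 in the mutant libraries, Tfe3 of 0.75 ± 0.26 and 0.62 ± 0.26, and Mitf of 0.66 ± 0.30 and 0.92 ± 0.30. Tfe3 and Mitf were called over both genotypes and Tfeb was not, and the sign of Tfeb in the control changed with the setting. As for the members, the calls in the control rested on single libraries, with 35 of the 55 called without control unlesioned replicate 1, 0 without control unlesioned replicate 2 or 3 or control 4dpl replicate 1 or 2, 4 without mutant unlesioned replicate 3, 9 without control 4dpl replicate 3, and 25 with the label number as a block. The shares of all genes called in these fits are those given above for the members.

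**Figure D5:**
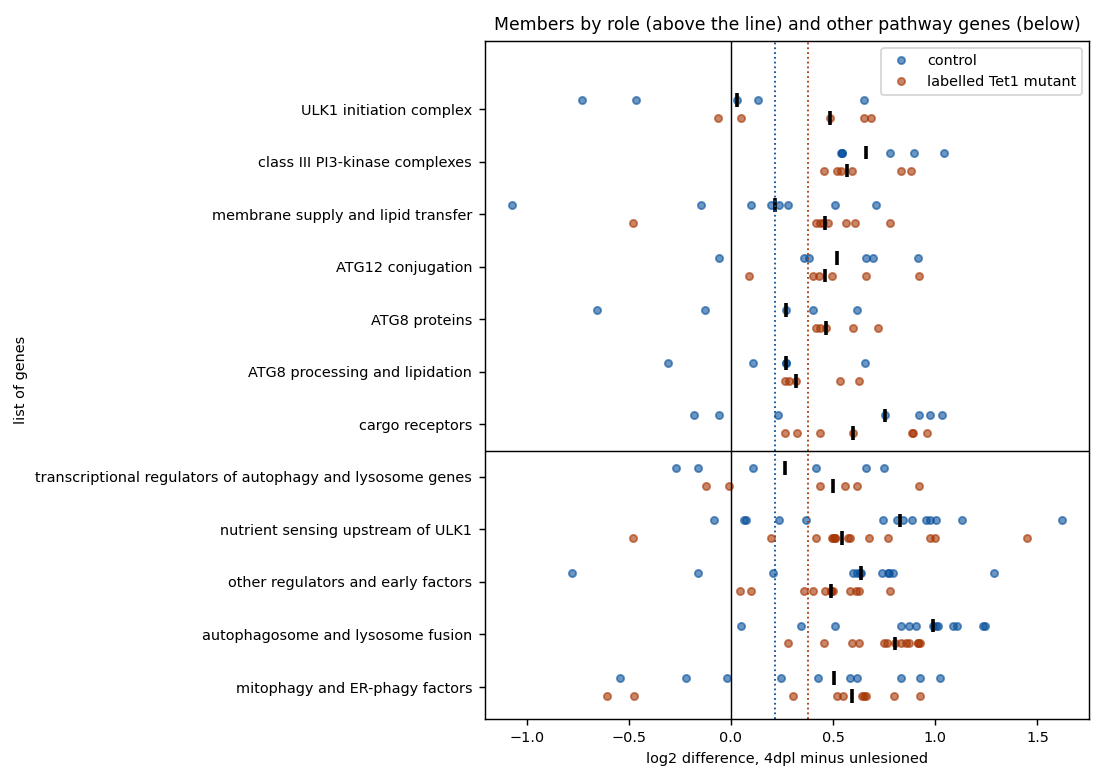
Log2 difference between 4dpl and unlesioned libraries (horizontal axis) of each gene in 7 role groups of the 42 members (above the line) and 5 lists of other pathway genes (below the line), with 1 point a gene, black bars at list medians and dotted lines at the medians of the well-counted genes (0.21 in the control, 0.38 in the mutant libraries). The fusion list lies furthest right, with a median of 0.99 in the control, and the ULK1 complex, with 0.03, lies furthest left in the control.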

How the data were processed

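RNA was measured in 12 libraries of oligodendroglial-enriched mouse spinal cord, grouped by the labels into control and mutant, unlesioned and 4dpl, with 3 in each. The authors deposited raw counts per Ensembl gene, not normalized. The study's methods name BWA, mm10, featureCounts on exons of uniquely aligned reads and DESeq2, while the submitters' processing notes name STAR and DESeq2 1.2.5, so the aligner is uncertain. The strand setting of the counting was not given in the sources used here, so antisense genes that overlap a member cannot be told apart from it. The 37 mitochondrial genes are at 0 in all libraries. The deposited files also give a gene length, used to express levels per kilobase. Symbols were matched for 54723 of 54838 genes.

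The tests were run in edgeR 4.0.16 under R 4.3.3. Genes were kept by filterByExpr (31109 genes), libraries were scaled by TMM, and a mean for each group was fitted to all 12 libraries (glmQLFit with legacy set to true, glmQLFTest). Genes were called at a p of 0.01 and a Benjamini-Hochberg adjusted p of 0.05. The fold change of a gene is given on the log2 scale with its standard error. The lesion contrast was tested in each genotype and averaged over both, the genotypes were compared unlesioned and at 4dpl, and the interaction was tested. Alternatives were DESeq2 1.42.0, limma 3.58.1 with voom, RLE size factors, other filters and thresholds, fits to the groups compared, replicate blocks and each library left out. The scripts were tested on simulated data.

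Same-numbered control libraries deviated together (r = 0.29, 0.14 and 0.27 for numbers 1 to 3), so the block by the numbers in the labels is given beside the control result. The labels do not say what a number shares. In the libraries labelled mutant r was 0.10, 0.27 and -0.01. For the numbers of the study's own list of samples r was -0.14 and 0.00 in the control and 0.10 and -0.21 in the libraries labelled mutant.

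The members, lists, tests and named genes were chosen with earlier results of these data known. Values per library are given for the members called in any comparison (the 14 with the smallest p over both genotypes where more were called), the member of each role with the smallest p in the control, the 5 ATG8 genes, Sqstm1 and the 2 smallest p of each genotype contrast and of the interaction. Of other pathway genes, the 8 called with the smallest p and Tfeb, Tfe3 and Mitf are named. Promoters are those of RefSeq on GRCm38.p6, and shared exon bases were computed from the GENCODE annotation of GRCm38.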

Additional observations from a re-analysis of the deposited data

How the results depend on the processing

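Each member had at least 10 counts in every library, so none was lost to the filter on low counts. Members called in the control numbered 5 as reported, 13 at an adjusted p of 0.10, 9 with DESeq2, with legacy set to false and with voom, 1 with the groups compared only, 2 among genes with 10 counts in every library and 21 with voom and sample weights. Of all genes, 5.12% were called higher as reported, and 10.6%, 8.42%, 7.17%, 6.81%, 2.39%, 3.87% and 15.5% under these alternatives in turn. Leaving out 1 library at a time gave 0 to 19 in the control, 0 to 10 in the mutant libraries and 11 to 30 over both genotypes. The shares of all genes called higher in these fits were 0.003% to 12.2%, 0.0% to 7.72% and 10.2% to 17.7% in turn. Members called in the mutant libraries numbered 8 at an adjusted p of 0.10, 4 with DESeq2 and with legacy set to false and 14 with sample weights, where 9.55%, 4.28%, 4.42% and 11.2% of all genes were called higher. Over both genotypes 9 were called among genes with 10 counts in every library and 27 with sample weights, where 10.5% and 20.5% of all genes were called higher.

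Other pathway genes called in the control numbered 15 as reported, 31 at an adjusted p of 0.10, 28 with DESeq2, 2 with the groups compared only, 6 with 10 counts in every library and 36 with sample weights, and 0 to 35 with a library left out. The shares of all genes called higher in these fits are those given above for the members. In the mutant libraries they numbered 0 as reported, 22 at an adjusted p of 0.10, 11 with DESeq2, 1 without a filter, 12 with legacy set to false, 2 with voom and 26 with sample weights, and 0 to 23 with a library left out. Of all genes, 0.0225% were called higher as reported, and 9.55%, 4.28%, 0.621%, 4.42%, 1.24% and 11.2% under these alternatives in turn. With a library left out the share was 0.0% to 7.72%. Over both genotypes 18 were called with 10 counts in every library, and 28 to 41 with a library left out. Of the genes tested, 10.5% and 10.2% to 17.7% were called higher in these fits. Between genotypes at 4dpl 1 was called with DESeq2 and with sample weights, and 0 to 1 with a library left out. There, 0.649% and 0.109% of all genes were called higher, and 0.0% to 0.136% with a library left out.

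With the replicate block by label number 10 members and 25 other pathway genes were called in the control, and by the study's number 0 members and 7 other pathway genes. Neither block moved a count of calls by over 1.5 times in another comparison.

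Scaling and filter moved the median of all genes: in the control it was -0.36, -0.42 with RLE and -0.05 with 10 counts in every library, where the median of the members was 0.32, 0.27 and 0.09. In the mutant libraries the median of the members was 0.49, and 0.36 with RLE and 0.18 with that filter.

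Over all 42 members, the sign changed under at least 1 alternative for 14 in the control, 7 in the mutant libraries and 10 over both genotypes, with log2 differences as reported from -0.31 to 0.32. Among the genes described by library and the transcriptional regulators, it changed in 22 values of 6 genes. With 10 counts in every library Ulk2 was at -0.092 and Tfeb at -0.14 in the control, Atg4d at -0.061 in the mutant libraries, and Wipi1 at -0.14 and Gabarapl2 at -0.12 over both genotypes. With the study number as a block Wipi1 was at 0.051, Gabarapl2 at 0.11 and Atg4d at 0.041 in the control, and Atg4d at 0.082 over both. Atg4d over both was at 0.064 without a filter and 0.029 with sample weights. With single libraries left out, the range in the control was -0.12 to 0.64 for Ulk2, -0.26 to 0.025 for Wipi1, -0.28 to 0.031 for Gabarapl2 and -0.057 to 0.40 for Tfeb, and over both genotypes -0.25 to 0.0011 for Map1lc3a and -0.086 to 0.10 for Atg4d. The cause was not tested. Fits to the groups compared were not run for the interaction and the average, nor the study number block between genotypes.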
